A study of Homo sapiens with 72 samples.

Results

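The 7 FOS and JUN genes, FOS, FOSB, FOSL1, FOSL2, JUN, JUNB and JUND, were followed through RNA sequencing of PEO1 cells, an established line of high-grade serous ovarian cancer (HGSOC). They were chosen by name, as the genes of the FOS and JUN families, and are 7 of the 56270 genes that had a transcript in the files. Both they and the gene lists below were chosen with earlier results of these data known. Their counts beside shares of all genes are therefore descriptions. All 7 passed the filter on low counts and were among the 20131 genes tested. FOS and JUN proteins pair through a leucine zipper to form activator protein 1 (AP-1), a transcription factor that binds a short palindromic DNA site. JUN proteins can pair with each other or with a FOS protein, whereas FOS proteins need a JUN partner. Several of these genes are immediate-early genes, which means that growth factors, stress and mechanical handling can switch them on within minutes without new protein synthesis.

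Cells received DMSO (Vehicle) or 8.5 µM rucaparib, a fluorescent PARP inhibitor, for 2 or 24 h. Unsorted cells were scraped straight into lysis buffer, and the rucaparib-treated ones are called Ruc Total here. The remaining rucaparib-treated cells were sorted by flow cytometry on drug fluorescence into the bottom 20% (Ruc Low) and the top 20% (Ruc High), which required detaching the cells, holding them in suspension and passing them through the sorter before lysis. The 4 groups at 2 times gave 8 groups of 3 replicates each, and every replicate was sequenced as 3 libraries that were summed, so that n = 3 per group throughout. No vehicle-treated cells were sorted, so handling in the sorter and handling in the presence of the drug cannot be told apart. The paper describes its gates as shares of the rucaparib-positive cells. Cells outside both gates were part of Ruc Total but not of the sorted groups, and the part of this in the sorting differences was not tested. The cultures are 1 cell line, and a replicate was given only as a number.

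Summed samples held 87969341 to 107683767 estimated counts, and single libraries 17391033 to 38899905. All 9 epithelial markers of serous ovarian cancer that were listed for this check were present in every sample, from a median of 5.99 TPM, a share of the library corrected for transcript length, for CLDN3 to 5439 TPM for KRT7. Of 13 listed markers of leukocytes, endothelium and fibroblasts, 9 stayed at or below 0.613 TPM in every sample, the pan-leukocyte marker PTPRC and the endothelial PECAM1 among them. The other 4 were present in every sample, CD68 at 5.78 to 19.1 TPM, a range that reaches above that of CLDN3, CD14 at 1.69 to 3.33 TPM, CDH5 at 1.71 to 5.15 TPM and COL1A1 at 1.01 to 6.13 TPM. Their part in the results was not tested. Expression below is given as CPM, the share of the counts of a library scaled by TMM, when 1 gene was compared between samples, and as TPM when genes were compared with each other. Fold changes and their 95% intervals come from edgeR, with p-values adjusted over all 20131 genes and a threshold of 0.05. A fold change here is a change in the share of the RNA sampled, and bulk RNA does not separate more cells expressing a gene from more RNA per cell.

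On GRCh38 the genes lie apart from each other, except that 3 of them are on chromosome 19. FOS spans chr14:75278774-75282230 on the forward strand, FOSB chr19:45467995-45475179 (forward), FOSL1 chr11:65892049-65900573 (reverse) and FOSL2 chr2:28392448-28417312 (forward). JUN spans chr1:58780788-58784327 (reverse), JUNB chr19:12791496-12793315 (forward) and JUND chr19:18279760-18281622 (reverse). RefSeq promoters (GRCh38.p14, 250 bases before to 50 after the start) were matched for 6 of the 7 genes. Positions count from the RefSeq start, which can differ from the start of the gene spans above. The windows of JUN, chr1:58783998-58784297, and FOSL2, chr2:28392608-28392907, lie within those spans. The promoters were searched on both strands for the AP-1 site TGANTCA, the cAMP response element TGACGTCA, the variant site TGACATCA and the CArG box, the core of the serum response element. A match of one of these 4 motifs cannot also be a match of another, since their letters differ. Among all 35116 promoters in the table, 7.71% held the AP-1 site, 1.85% the cAMP response element, 2.61% the variant site and 1.29% a CArG box. JUN held the variant site with its first base at position -67, JUND the cAMP response element at -200, and FOSL2 the AP-1 site TGACTCA at 5. The windows of FOS, FOSB and JUNB held none of the 4, which says only that these letters are not in these windows. The stretches around the JUN and JUND sites are shown because JUN passed the sorting test below and JUND did not, and both carry related motifs; capitals mark the motif.
JUN, chr1:58784068-58784167, reverse strand, positions -120 to -21: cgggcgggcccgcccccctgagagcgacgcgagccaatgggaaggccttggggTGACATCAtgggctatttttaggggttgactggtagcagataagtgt
JUND, chr19:18281753-18281852, reverse strand, positions -230 to -131: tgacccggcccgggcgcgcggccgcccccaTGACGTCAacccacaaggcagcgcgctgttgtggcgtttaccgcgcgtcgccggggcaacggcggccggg

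FOS, FOSB and JUN rose in sorted cells at both times, and FOS had the largest fold change. The share of counts from genes of the mitochondrial genome moved with sorting as well, from 0.751% to 1.03% in Ruc Total to 1.73% to 3.35% in sorted samples at 2 h, and from 0.260% to 0.448% to 1.57% to 4.24% at 24 h, and its part in these differences was not tested. At 2 h, FOS was at 8.82, 7.34 and 10.9 CPM in Ruc Total, at 214, 172 and 94.7 CPM in Ruc Low and at 249.8, 226 and 109.6 CPM in Ruc High. The lowest sorted sample was far above the highest unsorted one, and the 3 Vehicle samples, at 8.52, 4.37 and 7.79 CPM, lay beside Ruc Total. FOS, the founding immediate-early member of the family, was thus 19.6-fold higher in sorted than in unsorted rucaparib-treated cells (log2 fold change 4.29 ± 0.37 SE, 95% interval 11.4- to 33.7-fold, adjusted p = 4.62e-06). At 24 h, it was at 7.44, 3.90 and 4.95 CPM in Ruc Total, at 96.2, 82.3 and 53.6 CPM in Ruc Low and at 96.6, 113 and 69.4 CPM in Ruc High. Groups again did not overlap, and the difference was 15.6-fold (log2 fold change 3.96 ± 0.37 SE, 95% interval 9.16- to 26.6-fold, adjusted p = 8.91e-06).

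FOSB, which encodes a FOS protein and a shorter splice form that lacks the end of the transactivating part, followed FOS at a lower level. At 2 h its values were 4.49, 1.82 and 2.06 CPM in Ruc Total, 61.6, 30.1 and 17.4 CPM in Ruc Low and 57.9, 42.7 and 15.5 CPM in Ruc High. Sorted samples were all above the unsorted ones, by 13.4-fold (95% interval 5.23- to 34.5-fold, adjusted p = 0.00803). At 24 h the difference was 10.3-fold (95% interval 4.08- to 25.96-fold, adjusted p = 0.00477), with Ruc Total at 1.47 to 3.37 CPM and sorted samples at 13.98 to 37.0 CPM. The unsorted samples held only 147 to 750 estimated FOSB counts each, against 1330 to 5721 in sorted ones.

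JUN, the main partner of FOS proteins, was already well expressed before sorting and rose by less. At 2 h it was at 229, 211 and 247.5 CPM in Ruc Total, at 695, 541 and 453 CPM in Ruc Low and at 544, 540.0 and 441 CPM in Ruc High, again without overlap. The difference was 2.33-fold at 2 h (log2 fold change 1.22 ± 0.18 SE, adjusted p = 0.00259) and 2.42-fold at 24 h (1.27 ± 0.18 SE, adjusted p = 5.03e-04). At 24 h, Ruc Total was at 167 to 186 CPM and the sorted samples at 334 to 615 CPM.

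JUNB, a JUN protein with weaker transactivation of its own, lay higher in sorted samples without passing the threshold. At 2 h it was at 728, 452 and 665 CPM in Ruc Total, at 1382, 937 and 740.4 CPM in Ruc Low and at 1551, 941 and 754 CPM in Ruc High. The lowest sorted sample was only just above the highest unsorted one, and the difference was 1.71-fold (95% interval 1.25- to 2.34-fold, adjusted p = 0.0609). At 24 h it was 1.45-fold (95% interval 1.06- to 1.97-fold, adjusted p = 0.117), with 391 to 518 CPM in Ruc Total and 562 to 810.0 CPM in sorted samples.

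JUND, the JUN gene usually expressed at a steady level, overlapped between sorted and unsorted cells at both times. Its fold difference was 1.21 at 2 h (95% interval 0.958 to 1.52, adjusted p = 0.389) and 0.895 at 24 h (95% interval 0.713 to 1.12, adjusted p = 0.562). On the log2(TPM + 1) scale with limma, the 24 h difference of JUND was 0.80 (adjusted p = 0.00580) rather than -0.16, so no direction is given. The mean length of the transcripts sampled at 24 h was 2746, 2711 and 3229 bases in Ruc Total, on both sides of the 2984 to 3142 bases of the sorted samples. With this length and the replicate number as covariates, the log2 difference of JUND was 0.34 at 2 h (adjusted p = 0.00863), past the threshold, and 0.076 at 24 h (adjusted p = 0.630).

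FOSL1 and FOSL2, the FOS genes whose proteins lack a strong transactivating part, showed no difference that passed the test. FOSL1 was at 344, 358 and 417 CPM in Ruc Total at 2 h and at 254 to 468 CPM in sorted samples, a fold difference of 0.977 (95% interval 0.651 to 1.47, adjusted p = 0.969). At 24 h the fold difference was 1.14 (95% interval 0.755 to 1.71, adjusted p = 0.731). FOSL2 varied little, at 141 to 274 CPM over all 24 samples, with fold differences of 0.976 (95% interval 0.771 to 1.24) at 2 h and 0.997 (95% interval 0.787 to 1.26) at 24 h. The intervals of FOSL1 are the wider ones, and neither pair excludes a small change in either direction.

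**Figure D1:**
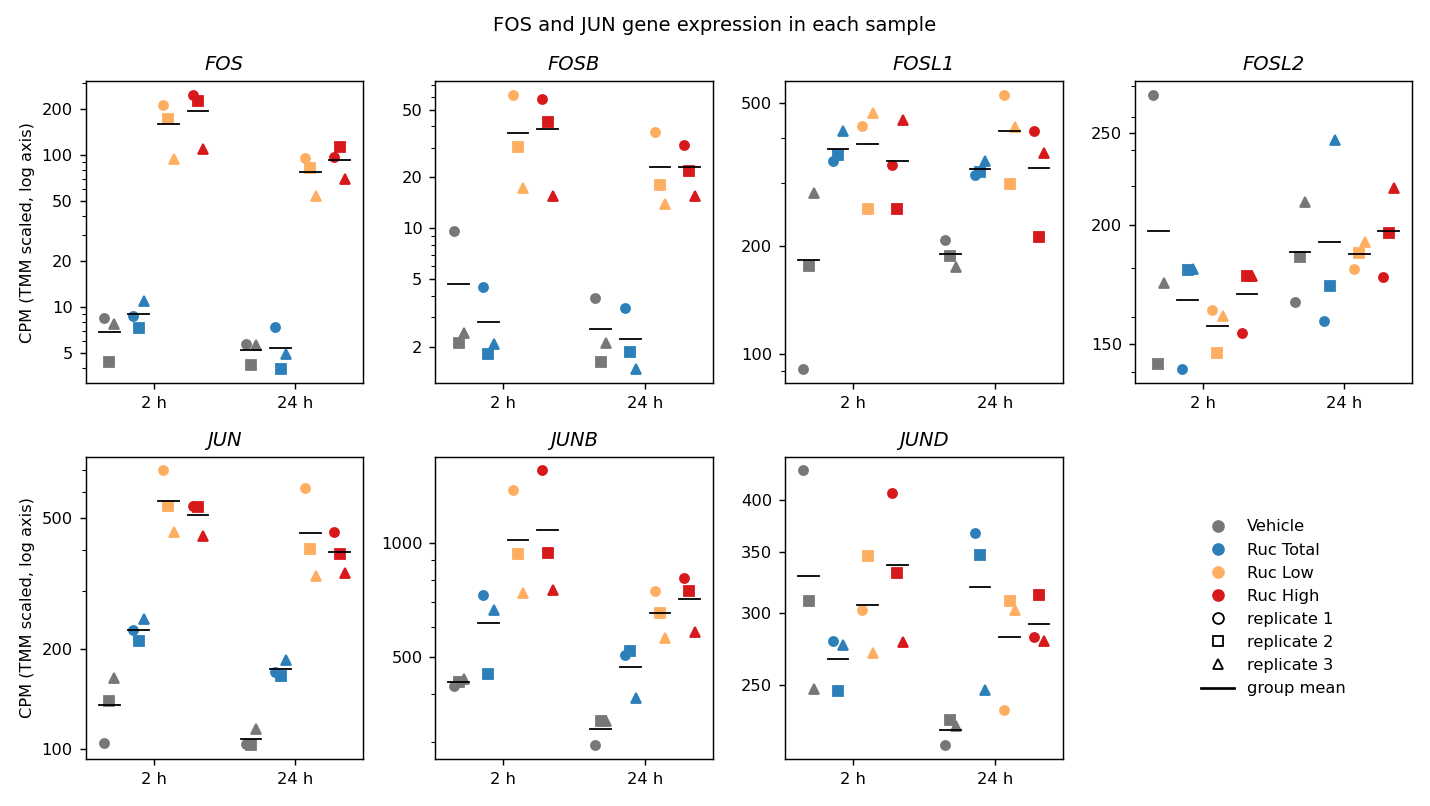
CPM (log axis, its range set for each gene) of the 7 genes in each of the 24 samples, by time and group, with the replicate as the symbol and the group mean as a line. FOS, FOSB and JUN, and JUNB without passing the threshold, separate sorted (orange, red) from unsorted (grey, blue) samples at both times. FOSL1, JUN and JUNB separate Vehicle from Ruc Total at both times, with no drug difference past the threshold. FOSL2 is spread within 141 to 274 CPM.

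Thus 3 of 7 genes rose with sorting at each time and none fell, while 1.24% of all tested genes passed upward and 1.17% downward at 2 h, and 4.32% and 5.14% at 24 h. Without overlap and higher were 4 of 7 (the 3 and JUNB) at both times, against 6.2% of all genes at 2 h and 6.15% at 24 h. The same 3 genes passed when Ruc Low alone or Ruc High alone was set against Ruc Total. For Ruc Low at 2 h, the log2 fold changes were 4.15 for FOS, 3.70 for FOSB and 1.30 for JUN, and for Ruc High they were 4.43, 3.79 and 1.15. Without replicate 2, only FOS passed (adjusted p = 0.0359 at 2 h and 0.0386 at 24 h), where 2 and 5 genes in all passed upward. FOSB then had an adjusted p of 0.268 at 2 h and 0.254 at 24 h, with log2 fold changes of 3.56 and 3.37, and JUN of 0.268 and 0.176. Without replicate 3, FOSB had an adjusted p of 0.105 at 2 h. In each of the 4 sorted groups, the lowest of the 3 samples of FOS, FOSB, JUN and JUNB was replicate 3.

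The response to sorting did not differ detectably between the times. The change in the log2 fold change from 2 to 24 h was -0.33 for FOS (95% interval -1.21 to 0.56), -0.38 for FOSB (-1.98 to 1.22) and 0.05 for JUN (-0.45 to 0.56). None of the 7 passed, and 0% of all genes did (0 of 20131 in edgeR, with 1101 at an unadjusted p under 0.05, and 7 in DESeq2). The intervals are wide, so a difference of more than 2-fold between the times in FOS is within them.

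The extra FOS RNA in sorted cells was spread over more transcript models. FOS-201, with 4 exons, carried most of the FOS TPM in unsorted samples and still 57.3% to 68.3% of it in sorted ones. A further 6 models include bases that are intronic in FOS-201. At 2 h these 6 models took 5.03%, 0.396% and 1.46% of the FOS estimated counts in Ruc Total, 17.5%, 24.1% and 22.9% in Ruc Low and 18.4%, 20.8% and 22.3% in Ruc High. Vehicle samples at 2 h, at 9.35%, 6.07% and 6.33%, lay above those of Ruc Total. Averaged over both gates within each replicate number, these models took 21.01% ± 2.65 (SD, n = 3) in sorted and 2.29% ± 2.42 in unsorted rucaparib-treated samples. The labels do not say what these numbers mark, and the SDs and permutation tests of sorted samples here rest on that matching. At 24 h the shares were 24.9% ± 2.17 and 5.73% ± 5.36. Sorted and unsorted samples did not overlap at either time, and an exact 2-sided permutation test gave p = 0.1, the smallest that 3 against 3 allows. For FOSB the share of counts in such models was 51.6% ± 9.11 in sorted and 40.2% ± 6.91 in unsorted samples at 2 h (exact permutation p = 0.2), and for FOSL2 it was 42.9% ± 5.77 and 49.97% ± 9.47 (p = 0.3). The split between models is Salmon's estimate, from 342 to 895 FOS counts in unsorted and 5095 to 22471 in sorted samples.

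**Figure D2:**
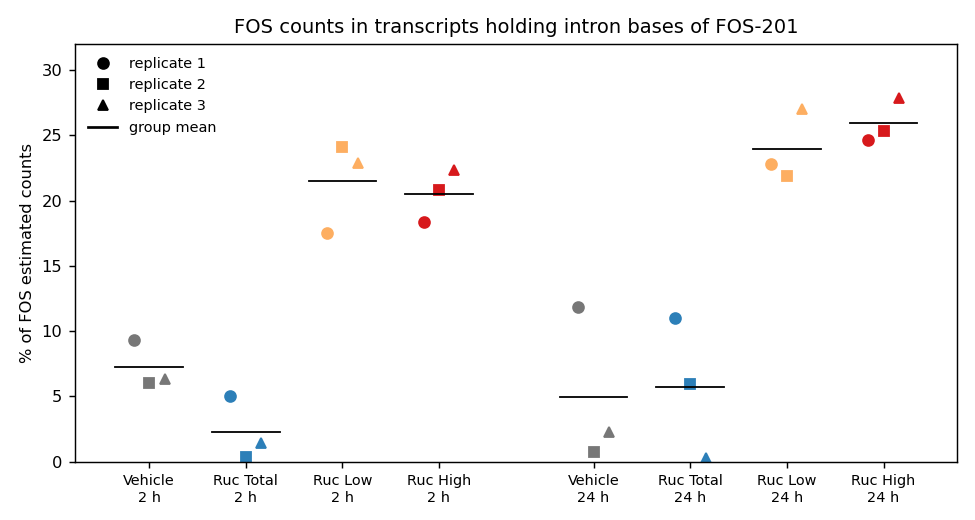
Share of FOS estimated counts (%) assigned to the 6 transcript models that hold intron bases of FOS-201, in each sample, by group and time, with the group mean as a line. Sorted samples lie at 17.5% to 27.8% and unsorted ones, Vehicle included, at 0.278% to 11.8%.

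With rucaparib and no sorting, FOS and FOSB overlapped with Vehicle at both times, while JUN, JUNB and FOSL1 lay higher without passing the threshold. None of the 7 genes passed at 2 h, where 0.0248% of all genes did, or at 24 h, where 2.2% passed upward and 1.15% downward. These counts of 0 in edgeR stood beside 3 of the 7 genes at an unadjusted p under 0.05 at 2 h, where 6.54% of all genes were, and 4 at 24 h, where 24.5% were. In DESeq2, 0 of the 7 passed at 2 h and 1 at 24 h, against 0.482% and 10.3% of all genes. All comparisons with Ruc Total share those samples with the sorting comparisons, so the values are given side by side.

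JUN lay higher in Ruc Total at both times. At 2 h it was at 104.0, 139.5 and 164 CPM in Vehicle and at 229, 211 and 247.5 CPM in Ruc Total, and at 24 h at 103, 102.6 and 115 CPM against 170.4, 167 and 186 CPM. Groups did not overlap at either time. The difference was 1.69-fold at 2 h (95% interval 1.27- to 2.25-fold, adjusted p = 0.324) and 1.63-fold at 24 h (95% interval 1.22- to 2.17-fold, adjusted p = 0.0546), close to the threshold. In DESeq2 the 24 h value passed (adjusted p = 0.0178). With log2(TPM + 1) and limma, the 24 h log2 difference of JUN was 0.34 (adjusted p = 0.522) in place of 0.70.

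FOSL1, a FOS gene known as a target of AP-1 itself and of the RAS and ERK pathway, was at 90.8, 176 and 282 CPM in Vehicle at 2 h and at 344, 358 and 417 CPM in Ruc Total. At 24 h it was at 207, 188 and 176 CPM in Vehicle and at 315, 322 and 345 CPM in Ruc Total, so the groups did not overlap at either time. Fold differences were 2.04 at 2 h (95% interval 1.27 to 3.28, adjusted p = 0.474) and 1.72 at 24 h (95% interval 1.07 to 2.76, adjusted p = 0.153). JUNB did not overlap either, at 1.43-fold at 2 h (adjusted p = 0.759) and 1.46-fold at 24 h (adjusted p = 0.177). With log2(TPM + 1) and limma, its 24 h log2 difference was 0.096 (adjusted p = 0.871) in place of 0.54. JUND did not overlap at 24 h, at 214, 229 and 225 CPM in Vehicle against 368, 347 and 246.4 CPM in Ruc Total, 1.44-fold higher (adjusted p = 0.101).

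The JUND value turned with the scale: with log2(TPM + 1) and limma the 24 h difference was -0.39 (adjusted p = 0.335). At 24 h the mean transcript length was 3107 to 3231 bases in Vehicle and 2711 to 3229 bases in Ruc Total. With this length and the replicate number as covariates, the 24 h log2 difference of JUND was 0.11 (adjusted p = 0.658) in place of 0.53, and that of JUN was 0.93 (adjusted p = 0.0176), past the threshold. Higher without overlap were 3 of the 7 genes at 2 h, against 3.86% of all genes, and 4 at 24 h, against 13.4%. FOS differed by 1.31-fold at 2 h (95% interval 0.791 to 2.17) and by 1.05-fold at 24 h (95% interval 0.630 to 1.74), and FOSB by 0.597-fold and 0.879-fold with wider intervals. FOSL2 differed by 0.847-fold at 2 h (95% interval 0.644 to 1.11) and by 1.02-fold at 24 h (95% interval 0.779 to 1.35).

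**Figure D3:**
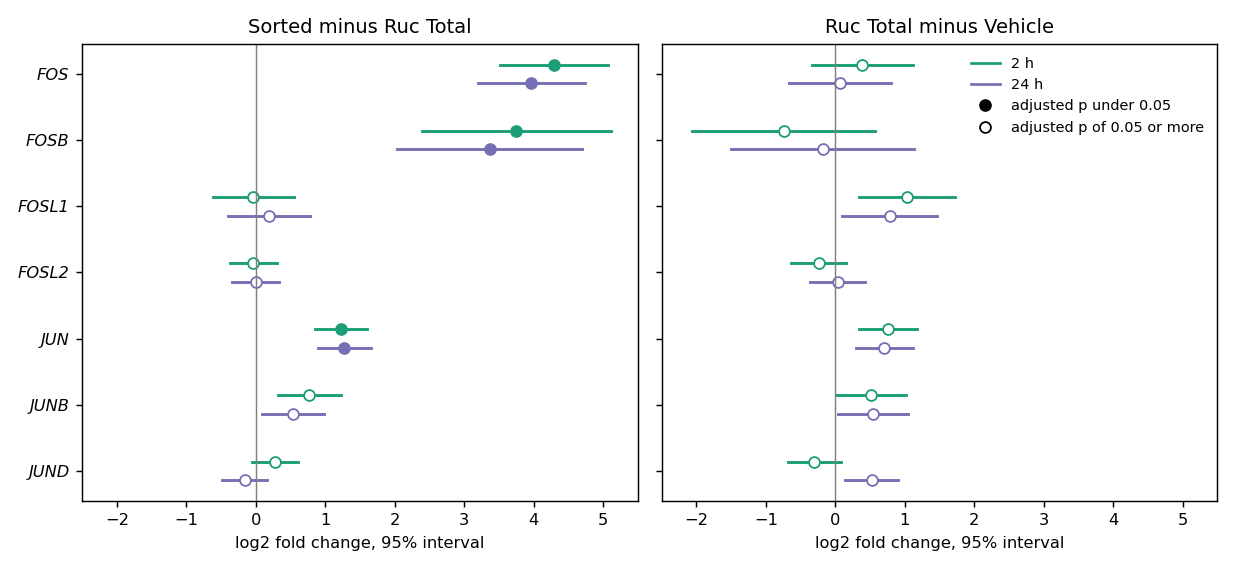
Log2 fold change (point) and 95% interval (line) of the 7 genes, for sorted minus Ruc Total cells and for Ruc Total minus Vehicle cells, at 2 and 24 h, n = 3 per group. Filled points passed an adjusted p of 0.05: FOS, FOSB and JUN for sorting at both times, and none for the drug.

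Drug content within the sorted cells moved none of these genes past the threshold. Ruc High and Ruc Low overlapped for all 7 genes at both times, each with an adjusted p of 1, while 0.00497% of all genes passed at 2 h and 0.109% at 24 h. FOS was 1.22-fold higher in Ruc High at 2 h (95% interval 0.745 to 1.99) and 1.20-fold at 24 h (95% interval 0.734 to 1.96). With samples matched by replicate number, whose meaning the labels do not give, FOS was higher in Ruc High in 3 of 3 at each time. The differences were 0.01 to 0.45 on the log2 scale. JUN was at 0.903-fold at 2 h (95% interval 0.679 to 1.20) and 0.874-fold at 24 h (95% interval 0.658 to 1.16). The largest log2 difference of the 7 was -0.34 for FOSL1 at 24 h (95% interval -1.02 to 0.34), lower in Ruc High in 3 of 3 replicates matched in the same way.

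In Vehicle cells, no gene of the family differed between 24 and 2 h past the threshold, where 0.0248% of all genes passed. JUND came nearest, at 431, 310 and 248 CPM at 2 h and 214, 229 and 225 CPM at 24 h, a log2 difference of -0.57 (95% interval -0.95 to -0.18, adjusted p = 0.239). The drug effect on JUND changed from -0.30 at 2 h to 0.53 at 24 h on the log2 scale. That change of 0.83 (95% interval 0.29 to 1.37) had an adjusted p of 0.134, where 0.139% of all genes passed, or of 0.0426 in DESeq2, where 4.36% did. It turned to -0.49 with log2(TPM + 1).

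Compared per length, FOSL1 and JUNB made up most of the family's RNA. In Vehicle at 2 h, FOSL1 was at 97.6 ± 53.4 TPM, JUNB at 108 ± 24.2 TPM and JUND at 69.1 ± 17.1 TPM (mean ± SD, n = 3), and the order of FOSL1 and JUNB is within their spread. JUN, at 27.2 ± 10.2 TPM, and FOSL2, at 26.8 ± 6.40 TPM, did not differ beyond their spread, and FOS, at 3.55 ± 1.63 TPM, and FOSB, at 0.758 ± 0.604 TPM, lay below them. In Ruc High at 2 h, JUNB was at 306 ± 96.8 TPM, FOSL1 at 205 ± 42.7 TPM, JUN at 113 ± 16.004 TPM, FOS at 103 ± 35.8 TPM, JUND at 98.1 ± 12.1 TPM, FOSL2 at 27.3 ± 6.84 TPM and FOSB at 7.29 ± 3.46 TPM. FOS moved from the sixth place to the level of JUN and JUND, which it did not differ from beyond their spread.

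The share of FOS in the summed TPM of the 7 genes was 0.743% ± 0.129 in Ruc Total at 2 h, 10.4% ± 2.91 in Ruc Low and 11.8% ± 3.23 in Ruc High, and at 24 h 0.569% ± 0.223, 5.79% ± 0.826 and 7.73% ± 1.96. The share of JUN was 9.20% ± 0.260 in Ruc Total at 2 h against 14.6% ± 0.918 in Ruc Low and 13.2% ± 1.65 in Ruc High. FOSL1, at 38.1% ± 2.04 of the sum in Ruc Total at 2 h, was at 26.9% ± 8.68 and 24.4% ± 7.88 in the sorted groups. The summed TPM was 333 ± 97.7 in Vehicle, 511 ± 28.1 in Ruc Total, 856 ± 189.7 in Ruc Low and 859.8 ± 96.7 in Ruc High at 2 h. At 24 h it was 364 ± 18.7, 422 ± 28.7, 826 ± 197 and 758 ± 133. These shares and sums are descriptions.

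**Figure D4:**
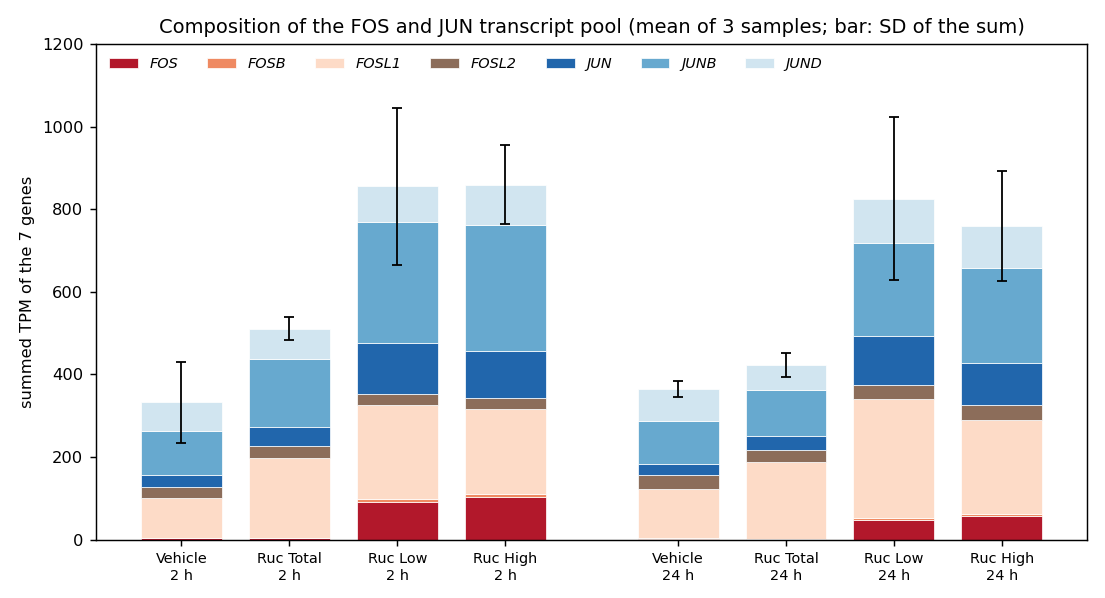
Mean TPM of each of the 7 genes, stacked, in the 8 groups (n = 3), with the SD of the summed TPM as the bar. The sum is 333 to 511 TPM in unsorted and 758 to 860 TPM in sorted groups, and the FOS segment at the base is visible only in sorted ones.

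Across the 8 group means of log2 CPM, the genes with at least 5 CPM whose pattern was most like that of FOS were an unnamed gene (ENSG00000264772, Pearson r = 0.994), ZC3H12A, an RNase that degrades inflammatory transcripts (r = 0.991), and FOSB (r = 0.991). FOSB was followed most closely by CSAD (r = 0.992), the same unnamed gene (r = 0.991) and FOS. For JUN these were TNF, a pro-inflammatory cytokine (r = 0.990), CCNL2 (r = 0.983) and RABGGTB (r = 0.982), and for JUNB they were IP6K2 (r = 0.996), TRIB1 (r = 0.992) and KRTAP2-3 (r = 0.979). FOSL1 went with PLCXD2 (r = 0.978), TP53BP2 (r = 0.954) and KLF10 (r = 0.954), JUND with PNPLA2 (r = 0.974), KLC1 (r = 0.972) and GATD1 (r = 0.960), and FOSL2 with ABHD15 (r = 0.958), EFNA4 (r = 0.950) and CUTALP (r = 0.949). The 3 genes of each were picked as the highest of 10960 candidates over 8 means that share their libraries, so the values describe these samples only. Over the 24 single samples, r was 0.957 for FOS with FOSB and 0.916 for JUN with TNF, but 0.441 to 0.573 for the FOSL2 genes.

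Other immediate-early genes, in a list chosen with earlier results of these data known, rose with sorting as well. Of the 28 listed, 10 rose at 2 h and 13 at 24 h, where 1.24% and 4.32% of all genes passed upward. None of the 28 fell, where 1.17% and 5.14% of all genes did. The median log2 fold changes of the 28 were 0.97 and 0.69, beside -0.01 and 0.01 over all genes tested. EGR1, a zinc-finger transcription factor, was at 17.4 ± 3.42 CPM in Ruc Total and 629 ± 96.8 CPM in sorted samples at 2 h (36.1-fold, adjusted p = 1.03e-09), and it was 28.8-fold higher at 24 h (adjusted p = 2.44e-09). CCN2, a matricellular protein regulated by YAP and TEAD, rose 7.68-fold at 2 h (adjusted p = 3.34e-05) and 12.2-fold at 24 h (adjusted p = 3.26e-06). With rucaparib alone, none of the 28 passed at 2 h, where 0.0248% of all genes did. At 24 h, where 2.2% of all genes passed upward, 2 of 28 rose. These were KLF6, a Krüppel-like factor, 2.20-fold (adjusted p = 0.0200), and IER3, 2.12-fold (adjusted p = 0.0408).

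For the lists that follow, the shares of all genes that passed with sorting were 1.24% upward and 1.17% downward at 2 h. At 24 h they were 4.32% and 5.14% with sorting, and 2.2% and 1.15% with rucaparib. Genes that feed back on MAP kinases, the kinases upstream of AP-1, had log2 fold changes above 0 with sorting in 12 of 12 at 2 h and 10 of 12 at 24 h. Medians of the 12 were 0.43 and 0.63, beside -0.01 and 0.01 over all genes tested. The share of all genes above 0 is not given. Of 12 such genes, DUSP1, a MAP kinase phosphatase, rose with sorting 3.88-fold at 2 h (adjusted p = 0.0127), and DUSP1 (2.75-fold, adjusted p = 0.0190) and SPRY2, an inhibitor of RAS signalling (1.62-fold, adjusted p = 0.0186), rose at 24 h. With rucaparib at 24 h, DUSP8, a phosphatase of JNK and p38, rose 1.96-fold (adjusted p = 0.0434). Of 20 MAP kinases and upstream kinases, MAPK7 (ERK5) rose 1.37-fold with sorting at 2 h (adjusted p = 0.0144) and MAPK13 (p38 delta) fell to 0.820-fold at 24 h (adjusted p = 0.0264), and with rucaparib none passed at either time. Of the other AP-1 dimer partners of the ATF, BATF, JDP and MAF families, 11 of 12 were tested and none passed in these 4 comparisons. None of the 9 genes of serum response factor and its ternary complex partners passed, nor any of the 6 genes of JUN turnover and coactivation.

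Of 20 textbook AP-1 target genes, 19 were tested. At 24 h of rucaparib, 9 of 19 rose and none fell, where 2.2% of all genes passed upward and 1.15% downward. The median log2 fold change of the 19 was 0.72 beside 0.03 over all genes, and at 2 h none of them passed. These calls depend on the samples fitted. Without replicate 2, only 3 of all genes tested passed upward at 24 h, and with only the groups compared 9 did. MMP1, an interstitial collagenase, was at 7.81 ± 0.706 CPM in Ruc Total and 0.973 ± 0.120 CPM in Vehicle at 24 h (8.01-fold, adjusted p = 3.03e-06). HBEGF, an EGF receptor ligand, was at 192 ± 22.4 CPM against 50.4 ± 3.46 CPM (3.82-fold, adjusted p = 0.00204). The other 7 that passed were MMP9, MMP10, PLAU, PLAUR, LIF, IVL and CXCL8, with log2 fold changes of 0.57 to 2.36. In sorted against Ruc Total cells, 1 rose at 2 h (LIF, a cytokine of the IL-6 family, 1.43-fold, adjusted p = 0.0278), and at 24 h LIF rose 1.35-fold (adjusted p = 0.0264) while 6 fell. Of all genes, 1.24% passed upward at 2 h, and at 24 h 4.32% passed upward and 5.14% downward. MMP1 was at 3.31 ± 1.74 CPM in sorted samples at 24 h, 0.378-fold of Ruc Total (adjusted p = 4.72e-04), and IVL, the cornified envelope protein involucrin, fell to 0.638-fold (adjusted p = 5.03e-04). The drug and sorting differences of these genes share the Ruc Total samples and are no independent pair.

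Of 14 heat shock genes, which respond to protein damage, none passed upward with sorting. Over all genes, 1.24% passed upward and 1.17% downward at 2 h, and 4.32% and 5.14% at 24 h. HSPE1, a chaperonin of mitochondria, fell to 0.633-fold at 2 h (adjusted p = 0.00985), and the cytosolic chaperones HSP90AA1 (0.697-fold, adjusted p = 0.0418) and HSP90AB1 (0.768-fold, adjusted p = 0.0497) fell at 24 h. With rucaparib at 24 h, where 2.2% of all genes passed upward, HSPA1A, the inducible HSP70, rose 1.70-fold (adjusted p = 0.0336).

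**Figure D5:**
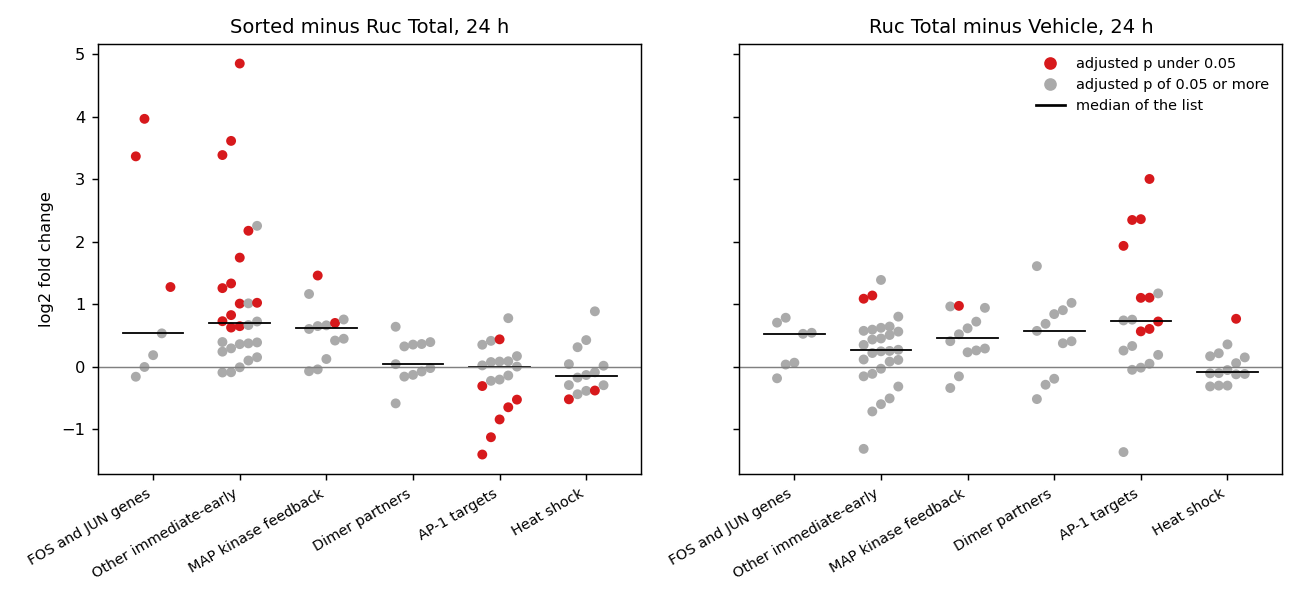
Log2 fold change at 24 h of each gene of 6 lists for sorted minus Ruc Total and for Ruc Total minus Vehicle cells, with the list's median as a line. Red points passed an adjusted p of 0.05, among them 13 other immediate-early genes with sorting (left) and 9 AP-1 targets with the drug (right). Of all genes, 4.32% and 2.2% passed upward.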

How the data were processed

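Poly(A) RNA of PEO1 cells was sequenced from directional libraries in 72 libraries (8 groups, 3 replicates, 3 libraries each), all assigned from the labels. For every library the authors deposited a table of transcripts with Salmon's estimated counts and TPM. Cutadapt 4.7, DESeq2 1.44.0 and GRCh38 are also listed in the processing notes of the submitters, whereas the Salmon version and transcriptome release are not given in the sources used here. Of 257369 transcripts, 194437 were matched to genes by GENCODE release 29 and 11546 by gene symbol. The other 51386 (7.11% to 8.96% of counts per library) were left out of totals and tests, so that a transcript of these genes newer than release 29 is not counted.

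The members and gene lists were chosen with earlier results of these data known. The 3 libraries of a replicate were summed and rounded, since the study describes biological replicates of sorting as made on different days and technical ones as separate wells. No labels say that the RNA replicates were separate cultures, and p-values measure only the spread between these samples. Counts were filtered (filterByExpr), scaled by TMM and tested in 1 fit of 24 samples with edgeR 4.0.16 (quasi-likelihood, no covariate beside group, Benjamini-Hochberg over 20131 genes) in R 4.3.3. The code was tested on simulated data. Sorting was the mean of Ruc High and Ruc Low minus Ruc Total, and the drug effect Ruc Total minus Vehicle. The labels share replicate numbers between groups without saying what a number marks, so the samples were not treated as paired in the main fit. Numbers were matched only to describe FOS and FOSL1 in Ruc High against Ruc Low, and as a block among the alternatives, with 1 exception. For the shares of intron-holding models, same-numbered Ruc Low and Ruc High samples were averaged before the SD and the permutation test. Named genes of other lists are up to 2 per direction with the smallest adjusted p, and the other names of AP-1 targets were added after their values were seen. Pattern genes are the 3 with the highest r among genes of at least 5 CPM. The alternatives tried were no filter or one of at least 1 CPM, DESeq2 1.42.0 or only its size factors, the replicate block without and with mean transcript length, only the groups compared, log2(TPM + 1) with limma 3.58.1 (mean of at least 0.5 TPM), libraries of at least 25000000 counts, 1 gate only, and each replicate left out. Leaving out libraries under 2800 bases of mean transcript length was chosen after the data were seen. Motifs and shares were computed in Python 3.11.15 with scipy 1.17.1.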

Additional observations from a re-analysis of the deposited data

Results flagged for a closer look

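Within the 9 libraries of each group, 2 values stood apart by Dixon's test, over 56 groups of libraries (7 genes in 8 groups, both ends). The test assumes independent values, whereas each 9 are 3 libraries of each of 3 replicates. No rate expected by chance is therefore given. Both came from the same library, the second of replicate 2 in Ruc Low at 2 h. FOSL2 was at 99.6 CPM there against 148 to 183 CPM in the other 8 libraries, and JUND was at 565 CPM against 254 to 334 CPM. That library stood apart in other ways too. It had the lowest total of all libraries, 17391033 counts, and 32200 genes with at least 1 count. The other libraries of its sample had 22058 and 22068 such genes. Its mitochondrial share was 0.243% against 3.66% and 2.02%, and its mean transcript length 2351 bases against 2835 and 3010. The part of this in the 2 values was not tested.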

How the results depend on the processing

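The count of FOS and JUN genes that rose with sorting was 3 of 7 at both times. It was 5 at 2 h with the replicate block and mean transcript length and 5 at 24 h with log2(TPM + 1). Leaving out 1 replicate gave 1 to 3 genes at 2 h and at 24 h, the lowest without replicate 2, when fewer samples were fitted. For rucaparib at 24 h the count of 0 became 1 in DESeq2, 1 with genes of at least 1 CPM, 2 with the replicate block, 1 with the block and length, 1 without libraries under 25000000 counts, and 0 to 2 with a replicate left out. For Vehicle over time it became 1 with the block. For the change of the drug effect over time it became 1 in DESeq2, 1 with the block, 1 without libraries under 2800 bases, and 0 to 1 with a replicate left out. The causes were not tested.

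The replicate number as a block raised the calls over all genes from 485 to 3005 and from 1905 to 4967 for sorting at 2 and 24 h, and from 674 to 4829 for rucaparib at 24 h. Of the 7 genes it called JUNB for sorting (adjusted p = 0.0109 at 2 h and 0.0352 at 24 h), JUN (0.0158) and JUND (0.0337) for the drug at 24 h, and JUND for Vehicle over time (0.0482) and for the change of the drug effect (0.0303), and it changed no other call of theirs in the comparisons given. Counts of the other lists under the block, with those above in brackets, were 16 (10) for other immediate-early genes, 7 (1) for AP-1 targets, 4 (1) for heat shock genes, 3 (1) for MAP kinases, 3 (1) for feedback genes, 3 (0) for dimer partners and 2 (0) for JUN turnover for sorting at 2 h. They were 6 (2) for heat shock genes, 5 (2) for feedback genes, 3 (1) for MAP kinases and 3 (0) for JUN turnover for sorting at 24 h. For the drug at 24 h they were 13 (9) for AP-1 targets and 9 (2) for other immediate-early genes. Dimer partners had 6 (0), MAP kinases 5 (0), feedback genes 4 (1), serum response factor genes 2 (0) and JUN turnover 2 (0). The 5 of 20 MAP kinases and 2 of 9 serum response factor genes stood beside 4829 of all 20131 genes. Counts for sorting stood beside 3005 of all 20131 genes at 2 h and 4967 at 24 h. The 3 of 20 MAP kinases were near that share at 2 h and below it at 24 h. Other lists held 28 other immediate-early, 19 AP-1 target, 14 heat shock, 12 feedback, 11 dimer partner and 6 JUN turnover genes tested. These counts take both directions together. Of the 5 MAP kinases 3 rose and 2 fell, and of the 6 dimer partners 5 rose and 1 fell. Of the 7 AP-1 targets called for sorting at 2 h, 3 rose and 4 fell, and of the 3 MAP kinases 2 rose and 1 fell. Among the 6 heat shock genes called for sorting at 24 h, 5 fell and 1 rose, DNAJB1 (log2 fold change 0.47, adjusted p = 0.0454). JUN turnover genes then had 1 that rose and 2 that fell. With the drug at 24 h, 1 rose and 1 fell in each of the JUN turnover and serum response factor lists. Same-numbered samples deviated from their group means with a median correlation of 0.287 (lowest -0.064, over 0.1 in 74 of 84 pairs), and 23 of 24 samples correlated best with their own number, which is a hint from the data and not from the design.

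None of the differences that turned in sign had passed the threshold as reported, and 1 passed it under the alternative. With log2(TPM + 1), JUND was 0.80 for sorting at 24 h (past the threshold), 0.10 and -0.39 for the drug at 2 and 24 h, 0.20 for Vehicle over time and -0.49 for the change of the drug effect. FOSL1 was 0.12 and FOSL2 0.27 for sorting at 2 and 24 h, FOSL2 was 0.052 and -0.23 for the drug, and FOS was -0.17 for the drug at 24 h. With the block and length, FOSL1 was -0.032 and JUND 0.076 for sorting at 24 h, and JUN -0.032 for the change of the sorting effect. With the block alone FOSL2 was 0.0060, and with genes of at least 1 CPM 0.019, for sorting at 24 h. With only the groups compared, FOSL1 was 0.0083 and FOSL2 0.0085 for sorting at 2 h. Without libraries under 2800 bases, FOSL1 was 0.0060 at 2 h and JUND 0.014 at 24 h for sorting, and FOS -0.11 for the drug at 24 h. With Ruc Low alone FOSL1 was 0.042 at 2 h, and with Ruc High alone FOSL2 was 0.020 at 2 h and 0.036 at 24 h.

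With a replicate left out, and among the differences given above, the ranges that crossed 0 for sorting were -0.12 to 0.16 and -0.045 to 0.41 for FOSL1, -0.12 to 0.050 and -0.075 to 0.18 for FOSL2 at 2 and 24 h, and -0.31 to 0.021 for JUND at 24 h. For the drug they were -0.49 to 0.18 and -0.11 to 0.076 for FOSL2, and -0.15 to 0.17 for FOS at 24 h. For the change of the sorting effect they were -0.65 to 0.12 for FOS and -0.048 to 0.13 for JUN, and also -0.11 to 0.15 for FOSL2.

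Over all genes, log2(TPM + 1) moved the split of sorting calls from 249 higher and 236 lower to 99 and 9 at 2 h, and from 870 and 1035 to 705 and 209 at 24 h, and moved the median of all genes for Vehicle over time from -0.04 to 0.15. The part of counting depth in any of these values was not tested.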
